A study of Mus musculus with 18 samples.

Results

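The 10 genes described here are effectors of cytotoxic lymphocytes, the T cells and natural killer cells that kill tumour cells: Gzma, Gzmb, Gzmk, Prf1, Nkg7, Ifng, Klrd1, Klrk1, Eomes and Tbx21. They were chosen by gene symbol, not by a measured value, and all 10 were found among the 22137 genes of one table and the 24778 genes of the other. The RNA came from tumours that formed in the liver after cells of the mouse colon carcinoma line MC38 had been injected into the spleen. One table holds tumours from WT mice on a low-fat diet (LFD, 5 libraries) and a high-fat diet (HFD, 5 libraries). The other holds tumours with a control hairpin (shCon, 4 libraries) and with a hairpin named for Yap (shYap, 4 libraries), and all 8 of these came from WT mice on the high-fat diet. The labels give neither the age nor the sex of the mice, do not say whether replicates were different animals, and do not name the hairpin sequence or the number of clones, so p-values measure the spread between these libraries only. The whole tumour was taken, so a lower level can mean fewer cytotoxic cells or less RNA per cell, and these cannot be told apart.

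Cytotoxic lymphocytes store granzymes, a family of serine proteases, in granules together with perforin, the protein that Prf1 encodes and that forms pores in the target cell. Nkg7 encodes a membrane protein of the same granules, and Ifng encodes interferon gamma, the cytokine that raises antigen presentation in neighbouring cells. Klrk1 encodes NKG2D, an activating receptor for stress ligands, and Klrd1 encodes CD94, the partner chain of the NKG2 receptors that read the non-classical class I protein Qa-1. Tbx21 (T-bet) and Eomes are the T-box transcription factors that direct this programme, and RUNX factors act beside them.

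T-box and RUNX factors are both known regulators of this programme, so the promoters of 5 effectors that fell under the high-fat diet and hold a match to one of their motifs are shown, together with the promoter of Eomes, which did not pass the test. Because the promoters were picked this way, their display shows no link between a match and a fall. Tbx21 also fell, and its promoter, not printed, held neither motif. The sequences are from RefSeq on GRCm38.p6 and cover the 250 bases before the annotated start, stopped at the first base of a GENCODE exon. They were searched on both strands for the T-box half-site GTGTGA and the RUNX site TGTGGT. Capitals mark each match, which reads TCACAC or ACCACA where it lies on the other strand.

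Gzmb (chr14:56262335-56262584, minus strand): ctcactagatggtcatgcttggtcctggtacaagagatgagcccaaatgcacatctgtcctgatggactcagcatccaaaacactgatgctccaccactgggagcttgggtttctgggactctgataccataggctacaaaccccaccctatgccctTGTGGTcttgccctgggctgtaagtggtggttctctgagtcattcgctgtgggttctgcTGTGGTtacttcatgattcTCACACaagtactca
Gzma (chr13:113100982-113101231, minus strand): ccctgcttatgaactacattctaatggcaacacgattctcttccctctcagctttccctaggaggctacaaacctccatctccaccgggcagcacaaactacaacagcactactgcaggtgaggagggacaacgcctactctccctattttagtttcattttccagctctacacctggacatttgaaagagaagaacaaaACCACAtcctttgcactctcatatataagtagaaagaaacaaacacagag
Prf1 (chr10:61297586-61297832, plus strand): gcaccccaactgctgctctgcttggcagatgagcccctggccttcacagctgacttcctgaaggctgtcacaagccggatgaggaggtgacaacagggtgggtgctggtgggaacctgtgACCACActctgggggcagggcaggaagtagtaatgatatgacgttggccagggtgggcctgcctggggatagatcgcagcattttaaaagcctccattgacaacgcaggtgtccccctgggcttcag
Nkg7 (chr7:43436888-43437072, plus strand): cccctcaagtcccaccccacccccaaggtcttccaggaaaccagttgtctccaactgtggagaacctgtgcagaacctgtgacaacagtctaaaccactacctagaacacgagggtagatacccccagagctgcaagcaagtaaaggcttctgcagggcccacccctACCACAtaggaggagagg
Klrk1 (chr6:129623865-129624114, minus strand): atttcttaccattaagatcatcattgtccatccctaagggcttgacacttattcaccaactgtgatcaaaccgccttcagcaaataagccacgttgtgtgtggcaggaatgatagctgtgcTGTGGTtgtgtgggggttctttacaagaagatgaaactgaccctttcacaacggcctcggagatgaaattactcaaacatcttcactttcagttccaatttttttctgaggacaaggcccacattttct
Eomes (chr9:118477939-118478188, plus strand): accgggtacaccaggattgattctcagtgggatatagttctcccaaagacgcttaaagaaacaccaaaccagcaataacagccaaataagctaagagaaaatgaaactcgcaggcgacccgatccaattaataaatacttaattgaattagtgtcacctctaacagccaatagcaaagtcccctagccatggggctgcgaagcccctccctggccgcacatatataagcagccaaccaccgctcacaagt

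RefSeq promoters were matched for 9 of the 10 genes, all but Klrd1. The RUNX site was in 5 of these 9 promoters (Gzma, Gzmb, Prf1, Nkg7 and Klrk1), and 14% of all 32851 mouse promoters of the same length hold it. The T-box half-site was in 3 of 9 (Gzmb, Gzmk and Nkg7), against 12.3% of all promoters. The Gzmb promoter held a pair of RUNX sites, beginning 93 and 34 bases before the start, and a T-box half-site 15 to 10 bases before it. The T-box half-site of Nkg7 lies 12 to 7 bases before its RefSeq start, past the stretch printed. The promoters of Eomes, Tbx21 and Ifng held neither string. No match overlapped another, and a match says only that these letters are there.

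Total estimated counts were 17766207 to 18474191 per library in the diet table and 17207214 to 21309950 in the hairpin table. Levels are given as CPM, reads of a gene relative to all counted reads of its library, TMM-scaled, and the tables were normalised separately, so levels set across them were not tested. Yap1 did not differ with the hairpin label: its mean was 77.9 ± 3.55 CPM under the control label and 75.9 ± 5.62 CPM under the shYap label (SD, n = 4 each; log2 fold change -0.04 ± 0.11, edgeR adjusted p 0.937). The groups are therefore called the libraries labelled shYap and shCon. Xist, a long RNA made from the silenced X of female cells, had 1406 to 2579 counts in the LFD libraries and 1 to 6 in the HFD libraries, so a difference in sex cannot be told apart from diet. In the hairpin table Xist had 0 to 4 counts in every library. MC38 is of colon epithelial origin. The epithelial marker Krt20 was listed at 0 in every LFD library, and Epcam stood at 1.2 CPM on average in shCon. These genes do not describe the whole list of epithelial markers. Its 9 genes in the diet table summed to 56.5 to 558 CPM in LFD, and its 8 genes in the hairpin table to 122 to 409 CPM in shCon. Within their groups, LFD replicate 5, HFD replicate 2, shCon replicate 4 and shYap replicate 3 correlated least with the other libraries.

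Divided by exon length, Nkg7 had the highest mean level of the 10 genes in every group, at 13.4 ± 6.92 CPM per kb in LFD, 3.92 ± 2.91 in HFD (SD, n = 5 each), 16.4 ± 7.10 in shCon and 4.08 ± 2.45 in shYap (SD, n = 4 each). In LFD tumours Gzmb followed at 4.93 ± 1.11 CPM per kb, then Eomes at 4.09 ± 1.27, Klrd1 at 3.32 ± 2.08 and Gzma at 2.44 ± 0.86. Each of these lies within 1 SD of the next, so neighbours in this order are not resolved, while every Gzmb library was above every Gzma library. Klrk1 at 1.39 ± 0.83 CPM per kb, Tbx21 at 1.27 ± 0.52 and Prf1 at 1.20 ± 0.41 formed a lower set without order among themselves, and Ifng at 0.69 ± 0.67 and Gzmk at 0.33 ± 0.17 were lowest (SD, n = 5 each). In HFD tumours the mean of Eomes, 3.65 ± 0.31 CPM per kb, was next to that of Nkg7 and above Gzmb at 2.36 ± 1.14, and Gzma went from rank 5 to rank 6, at 0.48 ± 0.27 (SD, n = 5 each). Klrk1 has the longest merged exons of the set (7.18 kb), which lowers its level per kb relative to its CPM. Eomes stood above Nkg7 per kb in HFD replicates 1, 2 and 5 and in shYap replicates 1 to 3, so the order of these genes is not resolved in HFD or shYap.

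**Figure D1:**
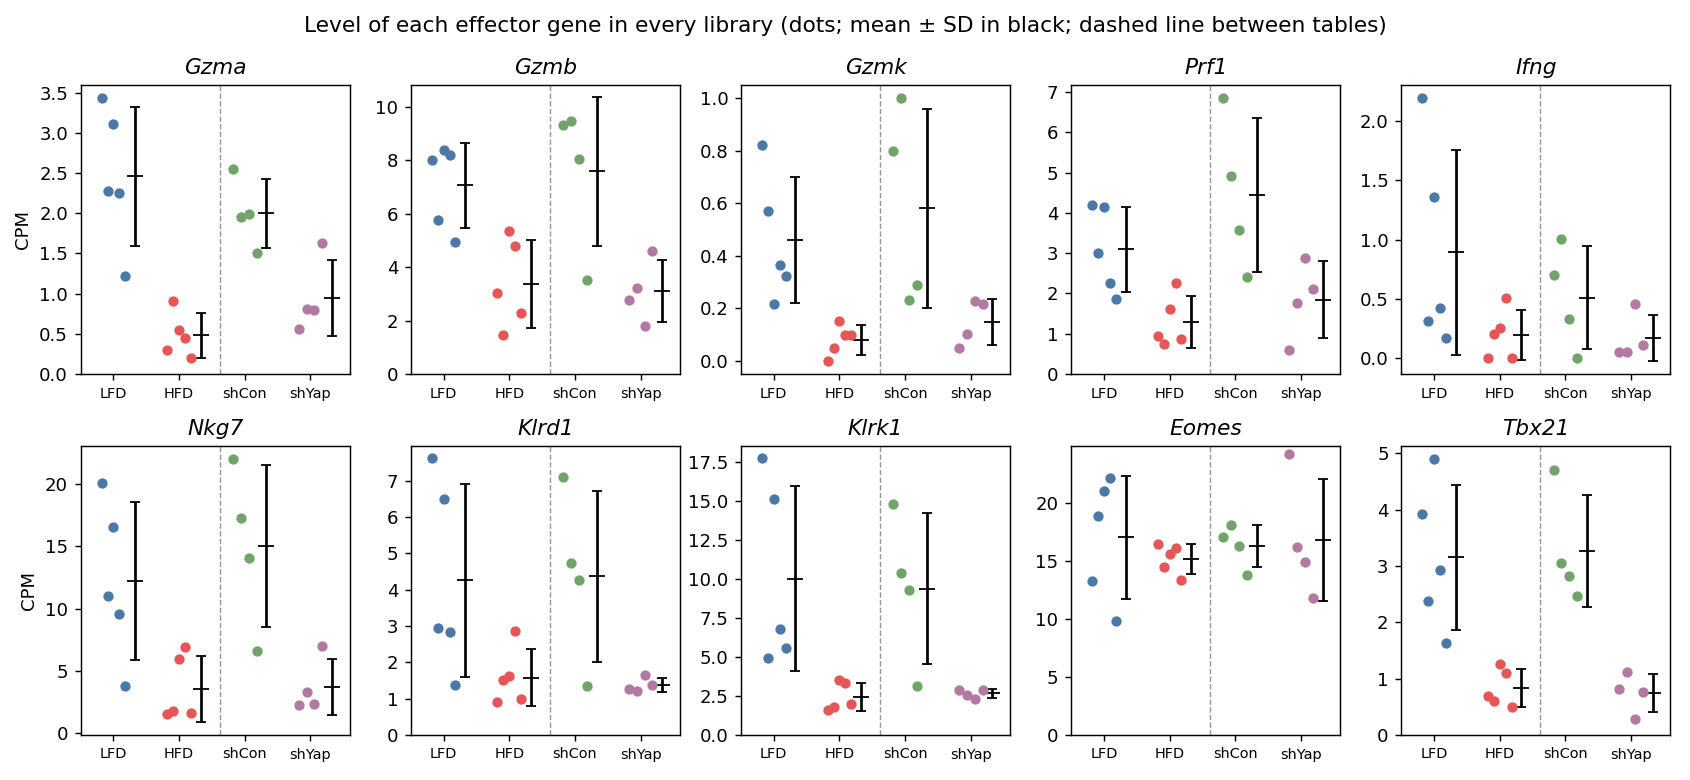
CPM (y axis, linear, its own scale in each panel) of the 10 effector genes in every library (dots, in replicate order) of the 4 groups, with the mean ± SD in black; a dashed line parts the separately normalised tables. The HFD mean lies below the LFD mean for all 10 genes, least for Eomes, whose HFD libraries (13.3 to 16.4 CPM) lie inside the LFD range (9.76 to 22.1 CPM).

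The first comparison asks how effector RNA in the metastases differed between HFD and LFD mice. HFD here means the 5 libraries of the diet table, not the shCon and shYap libraries, which also came from mice on that diet. In HFD tumours 7 effectors fell: the granule genes Gzma, Gzmb, Prf1 and Nkg7, the receptor genes Klrk1 and Klrd1, and the transcription factor Tbx21. Their falls ran from 2.09-fold for Gzmb to 5.07-fold for Gzma, while Eomes did not pass the test. That makes 7 of the 8 effectors tested lower and 0 higher (edgeR quasi-likelihood test, Benjamini-Hochberg adjusted p under 0.05 over 16340 genes), beside 21.6% of all genes tested lower and 19.4% higher. The median log2 fold change of the 8 was -1.60, against -0.0018 over all genes tested. Gzmk and Ifng had too few counts to be tested. Gzma had at least 10 counts in 2 of the 5 HFD libraries and entered the test through the LFD group. Leaving out LFD replicate 1, LFD replicate 3, HFD replicate 1 or HFD replicate 5 reduced the count to 4 (Gzma, Klrk1, Prf1 and Tbx21), beside 17.5%, 19.0%, 18.1% and 17.5% of all genes lower, and these 4 passed in all 10 fits that left out a library.

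Among the receptors, Klrk1 (NKG2D; chr6:129610323-129623864, minus strand, 6 merged exons) stood at 17.7, 4.92, 15.1, 6.81 and 5.53 CPM in LFD replicates 1 to 5 and at 1.59, 1.77, 3.53, 3.32 and 1.96 CPM in HFD replicates 1 to 5. Every HFD library was below every LFD library, and LFD replicates 1 and 3 stood well above the other LFD libraries. Klrk1 fell 4.11-fold (log2 fold change -2.04 ± 0.42 SE, edgeR adjusted p 0.00427). Its neighbour Klrd1 (CD94; chr6:129591782-129598775, plus strand, 7 merged exons), 11.5 kb away, stood at 7.62, 2.95, 6.48, 2.83 and 1.38 CPM in LFD and at 0.897, 1.52, 1.61, 2.87 and 0.978 CPM in HFD. The groups overlapped, since LFD replicate 5 lay below 3 HFD libraries. Klrd1 fell 2.7-fold (log2 fold change -1.43 ± 0.48 SE, edgeR adjusted p 0.0361).

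Of the T-box factors, Tbx21 (chr11:97098071-97115331, minus strand, 6 merged exons) stood at 3.91, 2.38, 4.90, 2.93 and 1.63 CPM in LFD and at 0.698, 0.606, 1.26, 1.11 and 0.489 CPM in HFD. The groups did not overlap. Tbx21 fell 3.78-fold (log2 fold change -1.92 ± 0.36 SE, edgeR adjusted p 0.00248). Eomes (chr9:118478212-118486132, plus strand, 6 merged exons) stood at 13.3, 18.9, 21.0, 22.1 and 9.76 CPM in LFD and at 16.4, 14.4, 15.6, 16.1 and 13.3 CPM in HFD. All 5 HFD libraries lay inside the LFD range, with a log2 fold change of -0.17 ± 0.20 SE (95% interval -0.62 to 0.28, edgeR adjusted p 0.534). Of the summed CPM of the 10 genes, Eomes made up 29.7 ± 8.87% in LFD libraries and 54.4 ± 10.9% in HFD libraries (SD, n = 5 each). An antisense gene, Gm33460, shares 118 exon bases with Eomes, 2.84% of its exon length, and reads of the overlap cannot be assigned without strand.

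Among the granule genes, Nkg7 (chr7:43437073-43438249, plus strand, 4 merged exons) stood at 20.1, 11, 16.6, 9.58 and 3.82 CPM in LFD and at 1.55, 1.82, 5.99, 6.94 and 1.61 CPM in HFD. HFD replicates 3 and 4 were higher than the other HFD libraries and also above LFD replicate 5. Nkg7 fell 3.41-fold (log2 fold change -1.77 ± 0.56 SE, edgeR adjusted p 0.0301). Prf1 (chr10:61297833-61304680, plus strand, 3 merged exons) stood at 4.19, 3.01, 4.14, 2.25 and 1.87 CPM in LFD and at 0.947, 0.758, 1.61, 2.26 and 0.880 CPM in HFD. Only HFD replicate 4 reached the LFD range, and Prf1 fell 2.39-fold (log2 fold change -1.26 ± 0.35 SE, edgeR adjusted p 0.0171).

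Gzma, a tryptase granzyme (chr13:113093825-113100981, minus strand, 6 merged exons), stood at 3.43, 2.28, 3.11, 2.25 and 1.22 CPM in LFD and at 0.299, 0.909, 0.554, 0.453 and 0.196 CPM in HFD. The groups did not overlap, and its fall of 5.07-fold was the largest of the tested effectors (log2 fold change -2.34 ± 0.40 SE, edgeR adjusted p 0.0017). Gzma had 4 to 18 counts in the HFD libraries, with at least 10 in 2 of 5, and entered the test through the LFD group. Its fold and its lack of overlap rest on these few counts, so its place as the largest fall is not well determined. Gzmb, the granzyme that cleaves caspases (chr14:56258838-56262260, minus strand, 5 merged exons), stood at 8.03, 5.75, 8.39, 8.22 and 4.96 CPM in LFD and at 3.04, 1.46, 5.34, 4.78 and 2.30 CPM in HFD. HFD replicate 3 lay above LFD replicate 5, and Gzmb fell 2.09-fold, the smallest of the falls (log2 fold change -1.06 ± 0.33 SE, edgeR adjusted p 0.0273).

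Gzmk, a granzyme known from memory-like CD8 T cells (chr13:113171608-113225908, minus strand, 7 merged exons, 70.6 kb from Gzma), had 12, 11, 4, 7 and 4 counts in LFD replicates 1 to 5 and 0, 1, 3, 2 and 2 in HFD. The groups did not overlap, but the total of 8 counts in HFD is too thin for a fold. Ifng (chr10:118441046-118445892, plus strand, 3 merged exons) had 32, 6, 25, 8 and 2 counts in LFD and 0, 4, 5, 10 and 0 in HFD. LFD replicates 1 and 3 carried most of it, and the other 3 LFD libraries overlapped HFD. A gene of unclear status, Gm49751, shares 336 exon bases with Ifng on the same strand, 25.95% of its exon length, so some reads could have been split. Without overlap between groups, and lower in HFD, were 3 of the 8 tested effectors (Gzma, Klrk1 and Tbx21), beside 14.8% of all genes tested.

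**Figure D2:**
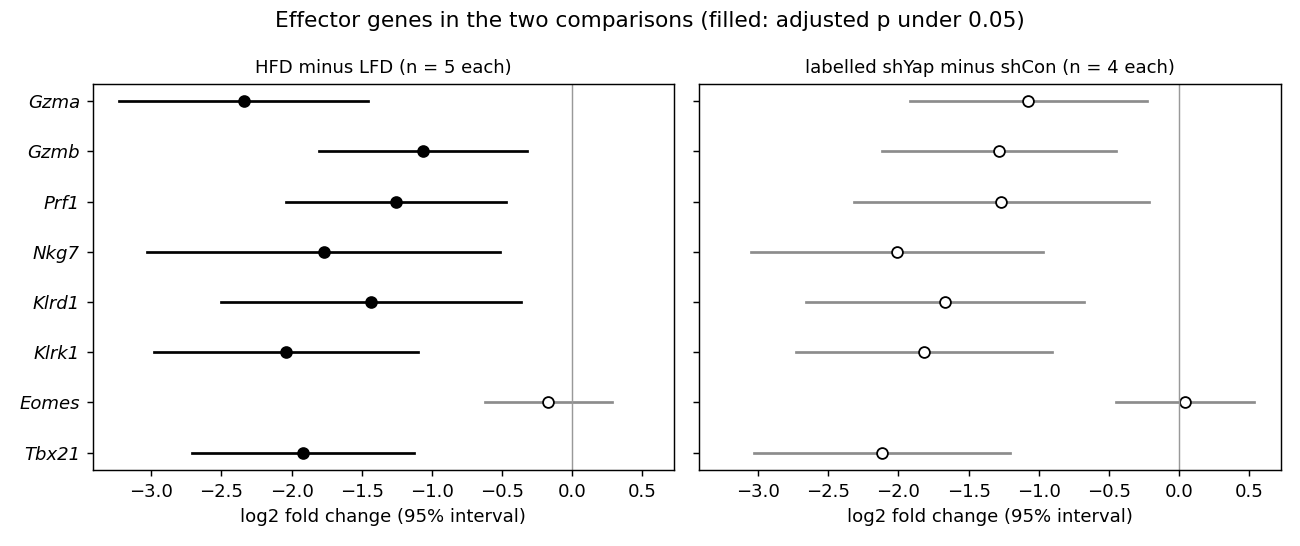
Log2 fold change (x axis) with its 95% interval for the 8 tested effectors (y axis) in HFD against LFD (left, n = 5 each) and in the libraries labelled shYap against shCon (right, n = 4 each); filled dots passed the adjusted threshold. On the left 7 of 8 dots are filled, from -2.34 (Gzma) to -1.06 (Gzmb), and none on the right, where 7 lie between -2.12 (Tbx21) and -1.07 (Gzma).

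Genes that work with these effectors were counted in lists chosen by function. The counts of this and the next lists stand beside 21.6% of all genes tested lower and 19.4% higher. Of the T cell receptor and CD8 list, 13 of 13 fell in HFD (median log2 fold change -1.75), with the kinase gene Zap70 at -2.10 ± 0.40 (SE; edgeR adjusted p 0.00273) and the adaptor gene Lat at -1.81 ± 0.39 (SE; adjusted p 0.00486). Of 14 tested natural killer receptor genes, 9 fell and 1 rose (median -1.24): Klrb1c fell (-1.69 ± 0.36 SE, edgeR adjusted p 0.00463), as did Klrc2, another partner of CD94 (-1.85 ± 0.48 SE, adjusted p 0.0119), and Klra4 rose (0.92 ± 0.24 SE, adjusted p 0.0113). The Klra and Klrc genes are families of near-identical copies, so counts may be split among them. Granule processing and release genes fell in 4 of 11 cases (Stxbp2, Vamp8, Rab27a and Ctsc, by 0.78, 0.77, 0.94 and 0.72 on the log2 scale; edgeR), and 0 of 11 rose (median -0.71). Ctsc encodes the protease that activates pro-granzymes, and its mean went from 470 ± 98.4 CPM under the low-fat diet to 285 ± 38.2 CPM under the high-fat diet (SD, n = 5 each).

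Ligands moved in both directions. Of the NKG2D and CD94 ligand genes, Raet1d (-2.44 ± 0.57 SE, edgeR adjusted p 0.00716) and H2-T23, which encodes Qa-1 (-0.66 ± 0.23 SE, adjusted p 0.0446), fell, and Ulbp1 rose (1.08 ± 0.11 SE, adjusted p 0.000153), among 4 tested. Raet1d was highest in LFD replicates 5 (17.7 CPM) and 1 (9.48 CPM), which also had the highest sums of hepatocyte markers. The other LFD libraries stood at 2.18 to 3.98 CPM, against 0.797 to 1.87 CPM in HFD. Of 7 death ligand and receptor genes tested, the ligand genes Tnfsf10 (TRAIL), Fasl and Tnf fell and the TNF receptor genes Tnfrsf1a and Tnfrsf1b rose, with a median of -0.80. Of 6 serpin genes that inhibit granzymes or their relatives, Serpinb6a (0.77 ± 0.14 SE, edgeR adjusted p 0.00225) and Serpinb9b (1.37 ± 0.31 SE, adjusted p 0.00633) rose and none fell, beside 19.4% of all genes higher; with 6 genes, nothing is read from this count. Serpinb9, the inhibitor of granzyme B, was at -0.08 ± 0.12 (SE; adjusted p 0.624). The other granzyme genes gave 1 test: Gzmc rose (3.18 ± 0.40 SE, edgeR adjusted p 0.000423) from 0 to 0.155 CPM in LFD to 0.657 to 1.31 CPM in HFD. It had 0 to 3 counts per LFD library and was tested only because of its HFD counts, so the fold is not well determined. Gzmc lies in a cluster of near-identical granzymes, so its level is uncertain.

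Cytokine genes that induce effectors, with their receptors, fell in 7 of 13 cases and rose in none (median -0.67). They included Il15ra (-1.58 ± 0.22 SE, edgeR adjusted p 0.000623), Il18 (-1.74 ± 0.24 SE, adjusted p 0.00066) and Il2rb, the shared receptor chain for IL-2 and IL-15 (-1.87 ± 0.41 SE, adjusted p 0.00577). Of 13 other transcription factor genes of the effector and memory programme, Lef1, Tox and Id2 fell, by 2.64, 2.53 and 2.56 on the log2 scale, and none rose (median -0.51; edgeR). Those 3 of 13 are near the 21.6% of all genes tested that were lower. Runx3, the RUNX factor of cytotoxic cells, was at -0.51 ± 0.20 (SE; edgeR adjusted p 0.0621). Of 23 interferon gamma response genes, 10 fell and none rose (median -0.67), among them Cxcl11 (-3.03 ± 0.41 SE, edgeR adjusted p 0.000574) and Iigp1 (-2.08 ± 0.40 SE, adjusted p 0.00311).

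Cell type markers did not all go the same way: some fell with these genes, and others did not. Of the T cell markers, which share genes with the T cell receptor list, 10 of 10 fell (median -1.85), and their summed CPM was 31.4 to 128 in LFD and 11.7 to 46.9 in HFD, with none at 0 in any library. Natural killer markers fell in 4 of 6 cases and rose in 1, Klra4 (median -1.45, summed CPM 42.6 to 86.1 in LFD and 39.6 to 53.1 in HFD). Klra4 alone stood at 9.61 to 23.5 CPM in LFD and at 28.0 to 38.2 CPM in HFD. It made up most of each HFD sum, so these sums do not describe the other natural killer markers. Pan-leukocyte markers fell in 5 of 8 (median -0.60; 858 to 1618 CPM in LFD, 908 to 1066 in HFD), B cell markers in 7 of 7 (median -2.47; 88.2 to 641 and 19.7 to 40.9 CPM), Kupffer cell markers in 4 of 6 (median -2.12; 113 to 348 and 19.1 to 84.6 CPM) and endothelial markers in 2 of 8 (median -0.85; 117 to 248 and 96.8 to 141 CPM). Macrophage markers were called in 0 of 8 by edgeR, with 0 at an unadjusted p under 0.05 and 0 by DESeq2 (median -0.11; 2072 to 4380 and 2753 to 3599 CPM). Fibroblast markers rose in 4 of 8 (median 0.71, 2930 to 5521 and 6433 to 8537 CPM), beside 19.4% of all genes higher. Intestinal epithelial markers fell in 2 of 7 (median -0.04, 56.5 to 558 and 189 to 361 CPM). The 2 of 8 endothelial and 2 of 7 epithelial markers are near the 21.6% of all genes that were lower, and nothing is read from these counts. Hepatocyte markers fell in 14 of 14 (median -4.60; 12566 to 121288 CPM in LFD and 648 to 5637 in HFD). The part of B cell, Kupffer cell, endothelial and fibroblast content in the effector result was not tested.

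With the mean hepatocyte marker level as a covariate, which correlates with diet at r = -0.87, 0 of 8 effectors passed in edgeR, 3.73% of all genes were lower, and the effectors' median log2 fold change was -2.17. At that correlation the hepatocyte share and diet cannot be told apart.

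The effectors were then set against leukocytes instead of the whole library. Summed over the 9 genes other than Eomes, they stood at 68.1, 33.2, 60.3, 35.7 and 20.9 CPM in LFD replicates 1 to 5 and at 9.02, 9.09, 20.3, 22.3 and 8.51 CPM in HFD. HFD replicate 4 lay above LFD replicate 5, the lowest of its group, and HFD replicate 3 just below it. Divided by the summed T cell markers the same values were 0.53, 0.48, 0.49, 0.46 and 0.67 in LFD and 0.77, 0.50, 0.66, 0.48 and 0.51 in HFD, so the ranges of the groups overlapped almost wholly. As a share of the summed pan-leukocyte markers they were 2.20% to 5.21% in LFD and 0.885% to 2.10% in HFD, without overlap. The shCon libraries, also from high-fat diet mice, had 9-gene sums of 21.3 to 68.9 CPM. These lie near the LFD range of 20.9 to 68.1 CPM and mostly above the HFD range of 8.51 to 22.3 CPM. The low level of the HFD libraries was thus not seen in shCon. The tables were normalised separately, and this difference was not tested.

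In the fit with counts relative to the pan-leukocyte markers, 5 of 8 effectors fell (Gzma, Klrk1, Tbx21, Nkg7 and Prf1), beside 10.1% of all genes, and the median over all genes was 0.37. Relative to the T cell markers, 0 of 8 effectors and 5.05% of all genes fell, the median of all genes moved to 1.77, and 77.6% of all genes were called higher. The effector median was then 0.21. Eomes was called higher on that scale (log2 fold change 1.74, edgeR adjusted p 0.00598), at about the median of all genes.

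**Figure D3:**
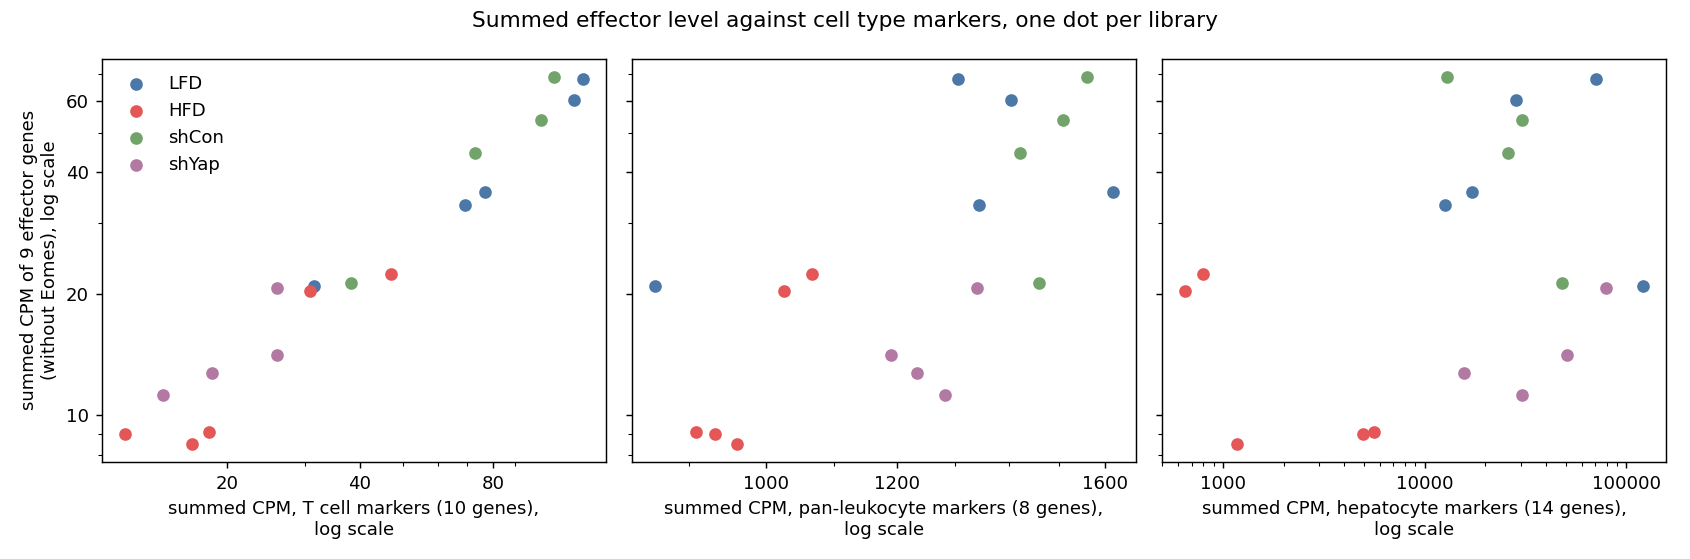
Summed CPM of the 9 effectors without Eomes (y axis, log scale) against the summed CPM of T cell, pan-leukocyte and hepatocyte markers (x axes, log scale), 1 dot per library; LFD and HFD were normalised apart from shCon and shYap. Against T cell markers the dots of all groups lie along one band, from 8.51 to 68.9 CPM. Hepatocyte markers summed to 15577 to 79484 CPM in shYap and to 12928 to 48077 CPM in shCon.

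The second comparison asks how effector RNA differed between the libraries labelled shYap and shCon, all from HFD mice. None of the 8 tested effectors passed the adjusted threshold in edgeR, and none of the 16571 genes tested did (0% lower, 0% higher). At an unadjusted p under 0.05, 7 of 8 effectors were lower in the libraries labelled shYap, beside 6.13% of all genes. With DESeq2, 5 of 8 were lower (Gzmb, Nkg7, Klrd1, Klrk1 and Tbx21), beside 1.73% of all genes, and with limma voom 0. The effector median was -1.48, against 0.0268 over all genes. Without the library of each group farthest from the others, shCon replicate 4 and shYap replicate 3, edgeR called 6 of 8 lower (those 5 and Prf1), beside 3.61% of all genes. Yap1 itself did not differ, as given above.

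The receptor gene Klrk1 had CPM values of 14.8, 10.3, 9.25 and 3.10 in shCon replicates 1 to 4, against 2.89, 2.58, 2.27 and 2.88 in the 4 libraries labelled shYap. The groups did not overlap, though shCon replicate 4 lay close to the shYap libraries, which were tightly grouped. The log2 fold change was -1.82 ± 0.41 SE (95% interval -2.73 to -0.91, edgeR adjusted p 0.169). Klrd1 stood at 7.11, 4.72, 4.26 and 1.36 CPM in shCon and at 1.27, 1.21, 1.64 and 1.36 CPM in shYap. Its shCon replicate 4 was inside the shYap range, with a log2 fold change of -1.67 ± 0.44 SE (95% interval -2.66 to -0.68, edgeR adjusted p 0.208). Without shCon replicate 4, Klrk1 (-2.11, adjusted p 0.0229) and Klrd1 (-1.96, adjusted p 0.0385) passed in edgeR, beside 0.457% of all genes. That library had the lowest Klrk1 and Klrd1 of its group, so this fit depends on the values tested. Each gene passed in only 1 of the 8 edgeR fits that left out a single library. The largest adjusted p in these fits was 0.540 for Klrk1 and 0.595 for Klrd1.

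Tbx21 stood at 4.71, 3.05, 2.82 and 2.47 CPM in shCon and at 0.811, 1.11, 0.284 and 0.762 CPM in shYap. Its groups did not overlap, and its log2 fold change was the most negative of the tested effectors, at -2.12 ± 0.41 SE (95% interval -3.03 to -1.21, edgeR adjusted p 0.156). Tbx21 had 5 to 22 counts in the shYap libraries, with at least 10 in 3 of 4, and entered the test through the shCon group. Its fold and its lack of overlap rest on these few counts. Eomes stood at 17.1, 18, 16.2 and 13.8 CPM in shCon and at 24.2, 16.2, 14.9 and 11.8 CPM in shYap. The shYap libraries lay on both sides of the shCon range, with a log2 fold change of 0.04 ± 0.22 SE (95% interval -0.45 to 0.53, edgeR adjusted p 0.968). Eomes made up 27.7 ± 8.23% of the summed effector CPM in shCon and 52.9 ± 13.1% in shYap (SD, n = 4 each).

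Nkg7 stood at 22, 17.3, 14.1 and 6.59 CPM in shCon and at 2.23, 3.28, 2.38 and 7.02 CPM in shYap, where replicate 4 lay above shCon replicate 4 (log2 fold change -2.01 ± 0.46 SE, edgeR adjusted p 0.175). Prf1 stood at 6.86, 4.91, 3.56 and 2.42 CPM in shCon and at 0.608, 1.77, 2.89 and 2.12 CPM in shYap, with an overlap at shYap replicate 3 (log2 fold change -1.27 ± 0.47 SE, edgeR adjusted p 0.366). In both genes shCon replicate 4 was the lowest of its group. Gzma stood at 2.55, 1.96, 1.99 and 1.5 CPM in shCon and at 0.558, 0.808, 0.794 and 1.63 CPM in shYap, with an overlap at shYap replicate 4 (log2 fold change -1.07 ± 0.38 SE, edgeR adjusted p 0.343). Gzmb stood at 9.32, 9.49, 8.05 and 3.54 CPM in shCon and at 2.79, 3.23, 1.81 and 4.62 CPM in shYap, with an overlap at the same library (log2 fold change -1.28 ± 0.37 SE, edgeR adjusted p 0.255). These 4 granule genes had unadjusted p-values from 0.00174 (Nkg7) to 0.0231 (Prf1) in edgeR's test over all genes.

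Gzmk had 16, 21, 5 and 6 counts in shCon and 1, 2, 4 and 4 in shYap, without overlap, and Ifng had 14, 21, 7 and 0 counts in shCon and 1, 1, 8 and 2 in shYap, with overlap. Neither had enough counts to be tested. Of the 8 tested effectors, Klrk1 and Tbx21 were lower without overlap, 2 of 8, beside 3.96% of all genes tested.

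In the lists around the effectors, edgeR again called 0 genes in this comparison. For these lists and the markers below, 6.13% of all genes tested were lower at an unadjusted p under 0.05 in edgeR. DESeq2 called 1.73% of all genes lower, and 3.96% were lower without overlap. The T cell receptor and CD8 list had a median log2 fold change of -1.82, with 13 of 13 genes lower at an unadjusted p under 0.05, 12 by DESeq2 and 12 without overlap between groups. Trac, the constant part of the T cell receptor alpha chain, stood at 16.8 CPM on average in shCon and 4.37 in shYap. Medians were -1.27 for natural killer receptors (9 of 14 lower and 1 higher unadjusted, 3 lower by DESeq2), -0.70 for inducing cytokines (7 of 14 lower, 4 by DESeq2) and -0.72 for interferon gamma response genes (15 of 23 lower, 8 by DESeq2). Among the latter, Cxcl9, a chemokine that attracts T cells, had a log2 fold change of -1.99 ± 0.50 SE (edgeR adjusted p 0.198).

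The other lists had medians nearer 0: -0.03 for granule processing and release (2 of 11 lower unadjusted, 1 by DESeq2), -0.03 for death ligands and receptors (2 of 7 lower, 1 by DESeq2), -0.05 for other transcription factors (3 of 13 lower and 1 higher, 2 and 1 by DESeq2), 0.24 for NKG2D and CD94 ligands (1 of 4 lower, 0 by DESeq2) and 0.38 for granzyme inhibitors (2 of 6 higher, 0 by DESeq2). Gzmc stood at 0.06 ± 0.58 (SE; edgeR adjusted p 0.981). Within the granule list, Ctsw, a protease of cytotoxic cells, had the lowest value, at -2.36 ± 0.46 (SE; edgeR adjusted p 0.156).

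T cell markers had a median of -1.98, with 10 of 10 lower at an unadjusted p under 0.05 and 8 by DESeq2, and summed to 38.1 to 110 CPM in shCon and 14.3 to 25.9 CPM in shYap. Medians of the other marker lists were -1.11 for natural killer cells (40.8 to 112 CPM in shCon, 42.0 to 58.5 in shYap), -0.45 for pan-leukocyte markers (1423 to 1561 and 1190 to 1339 CPM), -0.30 for B cells (134 to 381 and 126 to 485 CPM), -0.33 for macrophages (3352 to 3823 and 2540 to 3507 CPM), 0.55 for Kupffer cells (86.3 to 325 and 70.9 to 406 CPM), -0.38 for fibroblasts (4981 to 5679 and 2791 to 5376 CPM), 0.18 for endothelium (167 to 185 and 174 to 262 CPM) and 0.08 for intestinal epithelium (122 to 409 and 190 to 359 CPM). At an unadjusted p under 0.05, 3 of 7 natural killer markers were lower and 1 higher, 6 of 8 pan-leukocyte markers lower and 1 higher, 2 of 8 macrophage and 3 of 8 fibroblast markers lower, 1 of 8 endothelial markers lower and 2 higher, and 0 of the B cell, Kupffer cell and epithelial markers. DESeq2 called 2 natural killer, 1 pan-leukocyte and 3 fibroblast markers lower and 0 macrophage, endothelial, B cell, Kupffer cell or epithelial markers. The natural killer sums again include Klra4, so they need not describe the other natural killer markers. Hepatocyte markers had a median of 0.52 (12928 to 48077 CPM in shCon and 15577 to 79484 in shYap), with 0 of 14 at an unadjusted p under 0.05 or by DESeq2. Within shCon their sum was highest in replicate 4 and lowest in replicate 1. With their mean level as a covariate the effector median was -1.33. The cause of the effector difference was not tested.

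Summed over the 9 genes other than Eomes, the effectors had CPM values of 68.9, 53.8, 44.6 and 21.3 in the shCon libraries, against 11.3, 14.1, 12.8 and 20.7 in the shYap libraries. No shYap library reached the lowest shCon library, although shYap replicate 4 came within 1 CPM of it. Divided by the summed T cell markers the values were 0.63, 0.52, 0.61 and 0.56 in shCon and 0.79, 0.55, 0.69 and 0.80 in shYap. Per T cell marker the shYap libraries were thus not lower, and 3 of them lay above every shCon library. In the fit relative to T cell markers the effector median was 0.54, beside 1.79 over all genes, and relative to pan-leukocyte markers it was -1.23, beside 0.27, with 0 effectors called lower on either scale. Eomes was called higher relative to T cell markers (log2 fold change 1.97, edgeR adjusted p 0.00103), as were 94.1% of all genes.

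**Figure D4:**
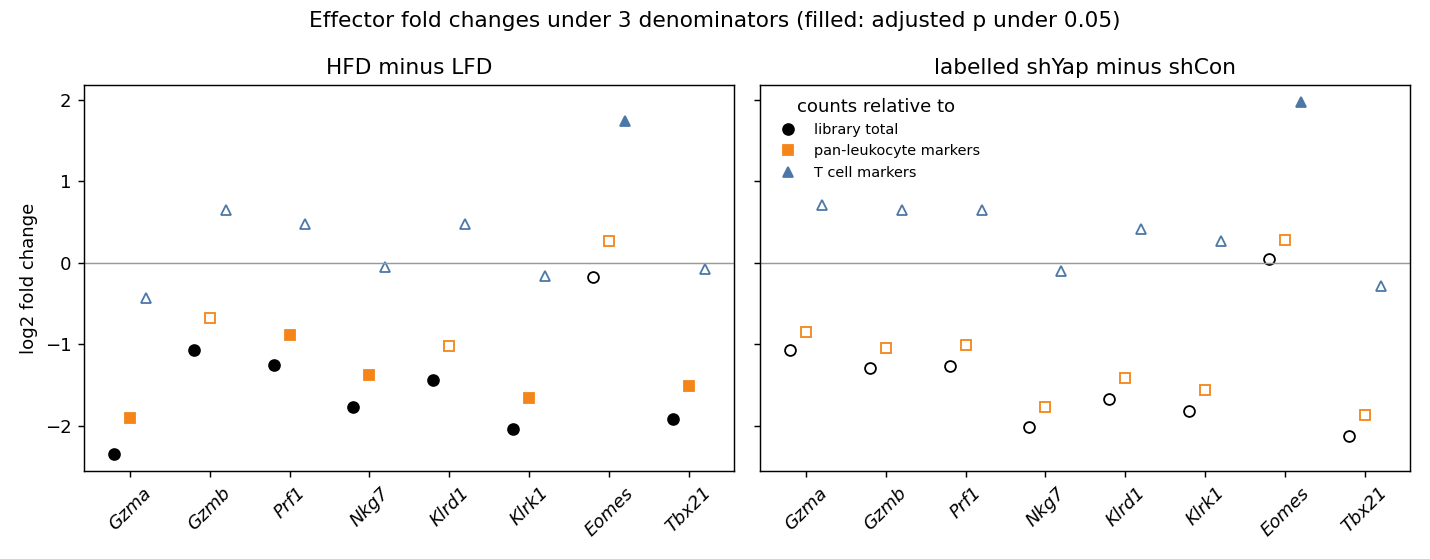
Log2 fold change (y axis) of the 8 tested effectors (x axis) with counts relative to the library total, the pan-leukocyte markers or the T cell markers, for HFD against LFD (left) and shYap against shCon (right); filled symbols passed the adjusted threshold. The T cell scale moves the effector median from -1.60 to 0.21 on the left and from -1.48 to 0.54 on the right, while all genes move to 1.77 and 1.79.

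The effectors also varied together among libraries of 1 group, a spread that no group difference enters. Over all 18 libraries, each gene's deviation from its group mean (log2 CPM) was set against the mean deviation of the other tested effectors. Pearson's r was 0.93 for Nkg7, 0.87 for Klrd1, 0.85 for Klrk1, 0.75 for Gzmb, 0.73 for Tbx21, 0.67 for Prf1 and 0.60 for Gzma, and 0.23 for Eomes. Eomes also varied least within groups, with an SD of 0.35 (log2 CPM), against 0.89 for Nkg7. These are descriptions over libraries that share tissue, depth and cell mixture.

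Leaving out the effectors themselves, predicted genes, pseudogenes and receptor segments, the genes whose deviations most resembled the mean of the 8 tested effectors, among 14873 genes with at least 1 CPM in both tables, were Cd3g (r = 0.951), Il2rb (0.951), Cd3e (0.943), Ms4a4b (0.938), Ctsw (0.938), Trbc2 (0.928), Trac (0.925), Gimap4 (0.923), Cd200r4 (0.923) and Sh2d2a (0.920), each over 18 libraries. Cd3g, Cd3e, Trbc2 and Trac encode parts of the T cell receptor complex, and Ctsw encodes a cathepsin of cytotoxic cells. Taken within each table alone, r for Cd3g was 0.956 over the diet libraries and 0.943 over the hairpin libraries, and for Il2rb 0.961 and 0.932.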

How the data were processed

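RNA-seq of 18 mouse tumours was deposited as a pair of gene tables. Their values are estimated counts that need not be whole, deposited by the authors. The submitters' processing notes name STAR 2.7.3a, Partek and DESeq2 with the builds GRCm38 and mm10 and give them no role. The annotation, strand and read length are not given in the sources used here. Position, strand and length of the genes were taken from GENCODE M21, which matched all 10 effectors in chromosome, start and strand.

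The tables were analysed apart, all genes of a table at a time. Counts were rounded, low genes were removed by filterByExpr, libraries were scaled by TMM, and groups were compared by the robust quasi-likelihood test of edgeR 4.0.16 (R 4.3.3) without covariates. A gene passed where its p, adjusted over all genes tested (Benjamini-Hochberg), was under 0.05. Standard errors were derived from the F statistic (fold change over root F), and intervals are at 95%. Total counts were close to each other in the diet table and ranged more widely in the hairpin table, from 17207214 to 21309950. TMM factors in the diet table ran from 0.684 (LFD replicate 5) to 1.11 (HFD replicate 5). Counts below about 10 per library limit Gzmk and Ifng, and in some libraries Gzma in HFD and Tbx21 in shYap. PCR copies were not marked, so counting error may be understated. Alternatives used DESeq2 1.42.0, limma 3.58.1 (voom), other size factors and filters, a hepatocyte covariate, marker-based denominators, a replicate block and left-out libraries.

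The genes named are the 10 effectors, up to 6 genes of each list with the smallest p, the 10 genes of most similar pattern (log2 CPM with a prior count of 2) and Yap1; Xist, Krt20, Epcam and the overlapping genes were added after their values were seen. The effectors, the lists and the tests were chosen with earlier results of these data known. On simulated counts of 16340 genes for HFD against LFD, 63% of 2-fold and 89% of 4-fold changes were called. On 16571 genes for shYap against shCon, 33% and 77% were. Each simulated gene was drawn independently, with 100 changed genes per fold taken over all levels, so spread shared among genes is absent. These rates are therefore not the chance of calling the low-count effectors in the real libraries.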

Additional observations from a re-analysis of the deposited data

Results flagged for a closer look

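Of the 40 gene and group combinations tested for a library standing apart, 1 did: Ifng in shYap replicate 3, at 0.4537 CPM (8 counts), with the nearest of the other shYap libraries at 0.1088 CPM. The gap was 0.855 of the group's range, above the critical value of 0.829 for 4 samples. By chance about 1 in 20 groups would be marked this way, and the value rests on few counts.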

How the results depend on the processing

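For HFD against LFD, the number of effectors lower was 7 with DESeq2, RLE or upper-quartile factors and without the farthest libraries, 6 with limma voom, 6 of 7 tested with a minimum of 1 CPM, 8 of 10 without a filter on low counts (Gzmk added), 5 relative to pan-leukocyte markers and 5 with alike HFD libraries summed. It was 0 with the hepatocyte covariate (1174 of all genes called) and 0 relative to T cell markers, where 1 effector was higher and 13512 of all genes were called. In that last fit HFD replicates 1 and 2 were added together, and so were replicates 3 and 4. Summed hepatocyte markers, for example, were 4961 and 5637 CPM in replicates 1 and 2, and 648 and 799 CPM in replicates 3 and 4. Nkg7 and Klrd1 no longer passed, and all genes called fell from 6710 to 4233. The labels do not say whether these libraries came from different animals, so n = 5 may overstate the independent HFD samples. Leaving out single libraries gave 4 to 7 effectors lower. The share of lower among all called genes was 52.6% in the main analysis, 44.8% with upper-quartile factors, 20.6% relative to pan-leukocyte markers and 6.11% relative to T cell markers. Log2 fold changes that turned sign relative to T cell markers were Gzmb 0.65, Prf1 0.48, Klrd1 0.48 and Eomes 1.74, against a median of 1.77 over all genes, and Eomes was 0.27 relative to pan-leukocyte markers.

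For shYap against shCon, 0 effectors passed with limma voom, RLE or upper-quartile factors, either filter or the pan-leukocyte scale. DESeq2 called 5 effectors and 410 of all genes, and the fit without the farthest libraries 6 effectors and 1255 genes. The hepatocyte covariate gave 1 gene, and leaving out single libraries gave 0 to 2 effectors and 0 to 94 genes. Relative to T cell markers, 1 effector (Eomes) was higher and 15600 genes were called. On that scale Gzma was at 0.71, Gzmb at 0.65, Prf1 at 0.65, Klrd1 at 0.42 and Klrk1 at 0.27, against a median of 1.79 over all genes. Eomes ranged from -0.19 to 0.18 when single libraries were left out. The cause of these changes was not tested.

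The labels do not say whether libraries with equal replicate numbers were paired, and likeness of expression cannot exclude it. Deviations of same-numbered libraries correlated at -0.50 to 0.31 in the diet comparison, where 0 of 5 libraries were closest to their own number. In the hairpin comparison they correlated at -0.05 to 0.18, and 1 of 4 was closest to its own number. These are the numbers of the sample titles. The submitters' column numbers differ from them for some shYap libraries, and pairing by column number was not tested. With the replicate number as a block, 6 effectors were lower in HFD (Klrd1 no longer passed) among 4929 genes called, and 0 effectors passed in shYap against shCon.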
